A study of Homo sapiens with 29 samples.

Results

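This section describes 59 genes of DNA replication and nucleotide synthesis among the 14111 genes that reached a mean level of 1 TPM (a transcript's length-corrected share of its library) in RNA-seq of PC9 cells, an EGFR-mutant lung adenocarcinoma line. The genes were a given list of named members with these functions, drawn up with earlier results of these data known, and all 59 passed that level. There were 29 libraries from 10 lines, 1 per line and treatment: untreated, erlotinib (E, an inhibitor of the EGFR kinase) for 24 h, or erlotinib with AF154, an antibody that activates the receptor tyrosine kinase AXL (EA), for 24 h. The lines were the parental cells (PAR), an AXL knockout made from them by CRISPR (KO), and 8 lines made by lentiviral transduction of the KO cells with AXL, namely wild type (WT), kinase dead (KD) and the tyrosine-to-phenylalanine mutants Y634F, Y643F, Y698F, Y726F, Y750F and Y821F. PAR thus carried its own AXL and the 8 transduced lines carried an introduced one, and the study described most cells of the transduced lines as not expressing AXL. An EA library of KO was not analysed here. Lines served as the replicates, so p-values measure the spread between lines and each line was compared with itself. How long the untreated cells were cultured is not given in the sources used here.

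Cells copy their DNA in S phase. Origin recognition complex proteins, CDC6 and CDT1 load the MCM2 to MCM7 ring onto origins in G1, and CDC7 with DBF4, MCM10, CDC45 and the GINS proteins turn the ring into a working helicase. Primase and the polymerases alpha, delta and epsilon then make DNA behind the fork, held by the PCNA clamp that replication factor C loads, while ribonucleotide reductase, thymidylate synthase and thymidine kinase supply the building blocks. Many of these genes are transcribed as cells pass from G1 into S phase, under E2F transcription factors.

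RefSeq promoter windows of 300 bases (250 before to 50 after a start, GRCh38.p14) were at hand for 51 of the 59 genes, 68 windows in all. Those without an entry were MCM4, MCM5, GINS4, POLD3, RPA2, RPA3, GGH and FAM111B. The windows of the 2 genes that fell most with erlotinib among them, CDC6 and MCM10, and of the 2 that changed least, RFC1 and ORC2, are shown because they hold the ends of the range described here. Each is given from 250 before to 30 after its start, with capitals for the E2F letters TTTCCCGC, TTTCGCGC, TTTGCCGC or TTTGGCGC and for the CCAAT letters, searched on both strands. They lie at chr17:40287629-40287908 on the plus strand, chr10:13161308-13161587 on the plus strand, chr4:39366333-39366612 on the minus strand and chr2:200963631-200963910 on the minus strand.
CDC6: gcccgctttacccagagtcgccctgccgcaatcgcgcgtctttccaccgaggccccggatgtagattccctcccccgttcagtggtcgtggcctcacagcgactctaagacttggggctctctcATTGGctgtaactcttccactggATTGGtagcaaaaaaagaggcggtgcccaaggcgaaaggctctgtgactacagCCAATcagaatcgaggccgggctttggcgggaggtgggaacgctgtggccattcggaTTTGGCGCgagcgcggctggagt
MCM10: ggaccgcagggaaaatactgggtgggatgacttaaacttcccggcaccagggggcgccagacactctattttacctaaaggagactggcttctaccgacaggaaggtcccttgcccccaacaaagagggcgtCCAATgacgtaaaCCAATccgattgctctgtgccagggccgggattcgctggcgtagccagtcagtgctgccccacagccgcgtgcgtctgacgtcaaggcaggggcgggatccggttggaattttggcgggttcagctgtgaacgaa
RFC1: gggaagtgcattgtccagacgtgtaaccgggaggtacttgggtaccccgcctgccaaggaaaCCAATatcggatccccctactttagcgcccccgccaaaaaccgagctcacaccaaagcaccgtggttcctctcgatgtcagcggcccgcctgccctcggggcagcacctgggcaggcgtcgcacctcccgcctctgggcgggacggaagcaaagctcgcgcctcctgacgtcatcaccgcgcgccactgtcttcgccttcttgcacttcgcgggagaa
ORC2: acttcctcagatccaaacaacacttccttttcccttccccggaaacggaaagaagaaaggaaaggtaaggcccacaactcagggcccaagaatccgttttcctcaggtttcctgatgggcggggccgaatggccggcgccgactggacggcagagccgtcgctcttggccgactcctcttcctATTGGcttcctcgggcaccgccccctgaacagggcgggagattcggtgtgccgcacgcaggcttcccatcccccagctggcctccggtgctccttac

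CDC6 held 1 match to the E2F letters and 3 to CCAAT, MCM10 held 2 to CCAAT, and RFC1 and ORC2 held 1 each to CCAAT. Over the list, 25 of 51 genes (49.0%) had the E2F letters in a window, against 6.67% of the 10487 tested genes with a window and 3.99% of all 27305 genes with one. CCAAT stood in 30 of 51 (58.8%), against 43.0% of the tested genes, and the letters TTTGAA or TTTAAA, those of the cell cycle homology region, in 7 of 51 (13.7%), against 21.2%. The E2F letters were found in 8 of 12 origin licensing genes and in 4 of 8 polymerase and primase genes. Among the 51 genes the median log2 change with erlotinib was -1.68 with the E2F letters and -1.54 without them, and genes without them spanned -2.75 (MCM10) to -0.26 (ORC2). Only these exact letters were counted. TTTGGCGG, which differs from TTTGGCGC in its last letter, was not. It stands in the windows of CDC6, MCM10 and, on the other strand, RFC1. A gene without the E2F letters can thus hold a near form of them. A letter match is a description of these windows, and binding was not measured.

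AXL itself stood at 92.4 TPM in the untreated library labelled KO and at 79.3 TPM in its E library, the lowest values, against 217 to 852 TPM in the other 27. Transcript levels do not check a CRISPR edit of the coding sequence. All 8 epithelial markers (EPCAM, KRT7, KRT8, KRT18, KRT19, CDH1, CLDN4 and EGFR) had means of 118 TPM or more, and the summed level of 4 blood cell markers was 0.22 to 1.4 TPM with CD3E at 0 in every library. Of 4 fibroblast markers only COL1A1 reached a mean of 1 TPM (42.6 TPM), and their sum was 16.2 to 36.6 TPM untreated, 37.9 to 62.6 TPM with E and 34.7 to 72.9 TPM with EA. The 3 endothelial markers summed to 5.48 to 10.2 TPM untreated, 2.10 to 6.69 TPM with E and 1.88 to 6.31 TPM with EA. The part of these in the results was not tested.

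Erlotinib lowered every one of the 59 genes. All 59 were called lower with E than untreated in 10 lines by limma, where 36.3% of the 14111 genes were called lower, and their median log2 change was -1.58 against 0.01 over all genes. Together they made up 0.403% to 0.426% of all TPM in untreated libraries and 0.12% to 0.162% with E. In 56 of 59 the level was lower in all 10 lines, a count that was not made over all genes. For 51 of 59 every E library lay below every untreated library, which held for 17.2% of all genes. The log2 fall was over 2 for 16 genes, between 1 and 2 for 30, and under 1 for 13. In these bulk samples fewer cells in S phase and less RNA per cell cannot be told apart.

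**Figure D1:**
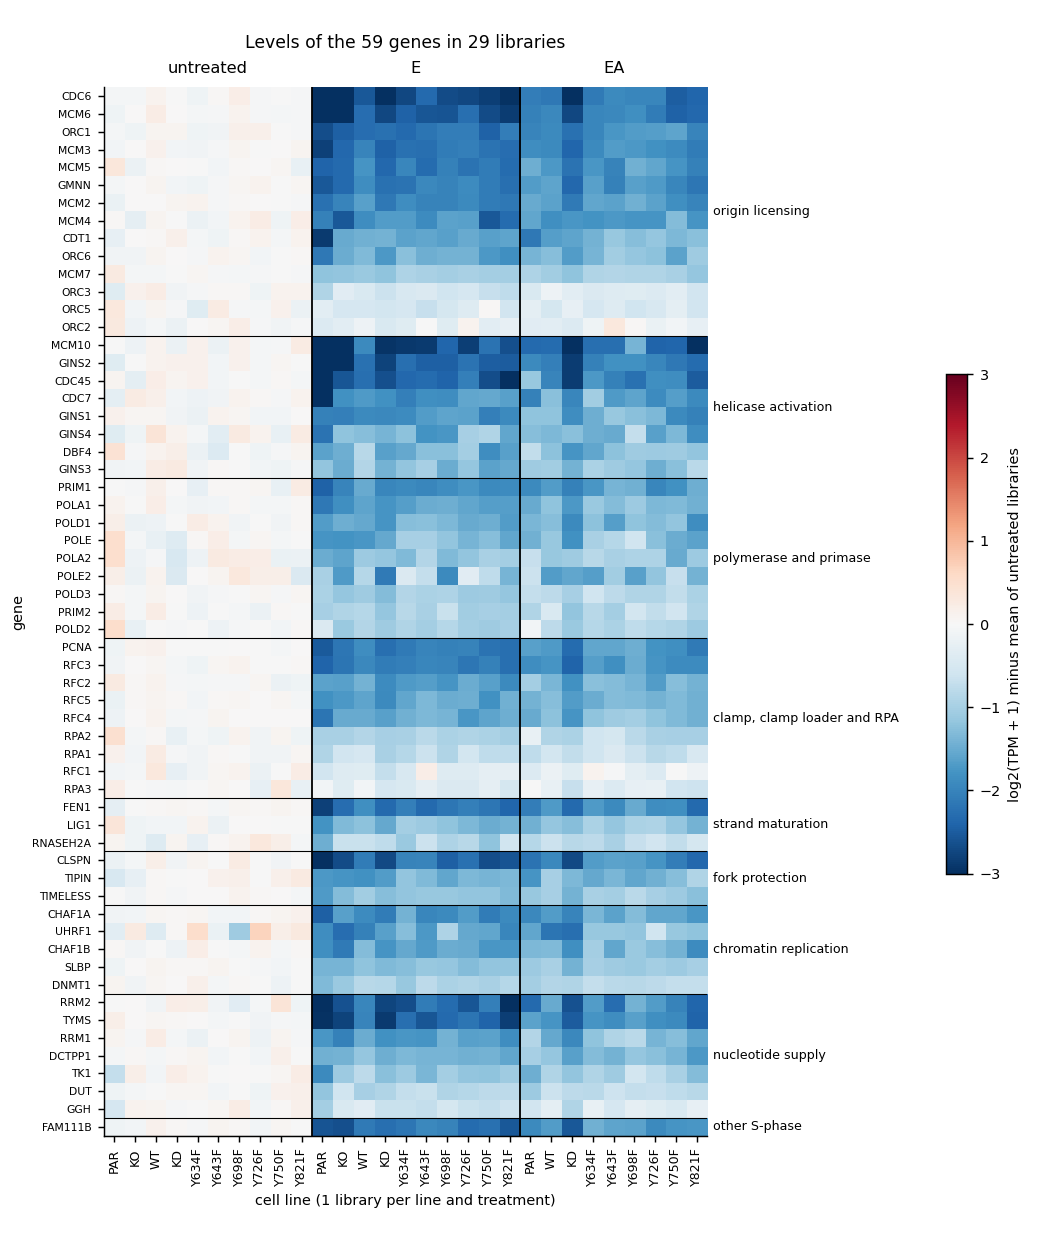
Level of each of the 59 genes (rows, by class and then by size of change) in each of the 29 libraries (columns, by treatment), as log2(TPM + 1) minus the mean of the 10 untreated libraries, with blue for lower and red for higher. Untreated columns are near white, E columns are blue in nearly every row, and EA columns are a paler blue in most lines.

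Origin licensing genes, which load the helicase, fell by a median of 1.99 on the log2 scale over 14 genes. CDC6 (ENSG00000094804), the ATPase that brings the MCM ring to origins, had 50.3, 54.0 and 63.5 TPM as the lowest, median and highest of the untreated libraries and 3.79, 7.14 and 10.1 TPM with E. Its mean was 8.20 times higher untreated, the log2 change was -2.90 ± 0.10 (SE, 10 lines, limma adjusted p = 2.22e-11), and it was the largest fall of the 59. MCM6, part of the ring, had 42.1, 44.8 and 53.8 TPM untreated and 3.46, 6.57 and 8.84 TPM with E, a log2 change of -2.69 ± 0.09 (limma adjusted p = 1.46e-11). No E library of either gene reached the lowest untreated library.

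The 6 MCM genes did not fall alike. MCM2 had 113, 131 and 139 TPM untreated and 26.6, 31.6 and 41.6 TPM with E (log2 change -2.0 ± 0.05), and MCM3, MCM4 and MCM5 changed by -2.27, -1.98 and -2.18. MCM7 had 150, 153 and 190 TPM untreated and 67.3, 76.5 and 82.1 TPM with E, a log2 change of -1.06 ± 0.05 (limma adjusted p = 2.41e-10). As a gene sum it fell least of the 6 in 10 of 10 lines, and MCM6 fell most in 9 of 10. Its protein-coding transcript MCM7-201 changed by -1.97. Among the most abundant transcripts of the 6 genes, only MCM4-214 fell less, by -1.78, while MCM4-223 changed by -3.53. The others changed by more than MCM7-201: MCM2-201 by -2.09, MCM5-202 by -2.18, MCM3-205 by -2.30 and MCM6-201 by -2.69. The initiation factors CDT1 and GMNN, the inhibitor of CDT1, changed by -1.68 and -2.14.

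The subunits of the origin recognition complex, which marks origins, spread widely too. ORC1 changed by -2.28 ± 0.06 and ORC6 by -1.58 ± 0.08, while ORC3 changed by -0.58 and ORC5 by -0.45. ORC2 had 15.1, 16.7 and 21.5 TPM untreated and 12.4, 13.6 and 18.5 TPM with E, the smallest change of the 59 at -0.26 ± 0.07 (limma adjusted p = 0.00716). The ORC2 groups overlapped, and 9 of 10 lines were lower.

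Among the 8 helicase activation genes the median change was -1.87. MCM10, which helps the helicase start, had 24.8, 27.6 and 33.5 TPM untreated and 1.03, 3.06 and 6.79 TPM with E, a log2 change of -2.75 ± 0.14 (limma adjusted p = 6.34e-10). CDC45, a helicase subunit, had 22.5, 28.0 and 32.4 TPM untreated and 2.27, 4.17 and 6.0 TPM with E, a change of -2.54 ± 0.10. The GINS subunits were uneven: GINS2 changed by -2.55, GINS1 by -1.86 and GINS4 by -1.43. GINS3 changed least of the class, by -1.29 ± 0.07, from 19.2, 20.1 and 25.4 TPM to 6.22, 7.98 and 10.9 TPM. CDC7, the kinase that fires origins, and its activator DBF4 changed by -1.88 and -1.41.

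The 9 polymerase and primase genes fell less than the helicase genes in the median, at -1.20. PRIM1, the catalytic primase subunit, had 24.2, 29.1 and 34.2 TPM untreated and 4.55, 6.91 and 9.46 TPM with E, the largest change of the class at -1.92 ± 0.07 (limma adjusted p = 4.09e-11). POLA1, the catalytic subunit of polymerase alpha, had 17.2, 18.0 and 21.4 TPM untreated and 3.42, 5.16 and 6.08 TPM with E, a change of -1.68 ± 0.08, where POLA2 changed by -1.20. POLD1, the catalytic subunit of polymerase delta, changed by -1.50, against -0.94 for POLD2 and -1.05 for POLD3, and POLE of polymerase epsilon changed by -1.42 against -1.12 for POLE2. This order held for gene sums and not for single transcripts, since POLE2-201 changed by -2.29 and POLE-201 by -1.51, and POLD3-201 by -1.29 and POLD1-201 by -1.24. In KD and Y698F the POLE2 sum also fell more than that of POLE. POLD2 had 141, 163 and 240 TPM untreated and 76.0, 82.6 and 123 TPM with E, and these groups did not overlap. The differences between subunits were not tested.

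PCNA, the sliding clamp, was the most abundant of the list with 301, 324 and 359 TPM untreated, and had 56.2, 73.7 and 89.3 TPM with E. Its log2 change was -2.14 ± 0.04 (limma adjusted p = 5.60e-13). Replication factor C, which loads the clamp, held a large subunit with a small change and 4 small subunits with large ones. RFC1 had 37.6, 44.0 and 56.5 TPM untreated and 27.0, 34.3 and 52.3 TPM with E, a change of -0.37 ± 0.07 (limma adjusted p = 0.000232), and it fell least of the 5 in 10 of 10 lines. RFC3 had 39.0, 42.7 and 46.1 TPM untreated and 7.22, 9.30 and 10.4 TPM with E, a change of -2.11 ± 0.05, and fell most of the 5 in 10 of 10 lines. RFC2, RFC4 and RFC5 changed by -1.67, -1.58 and -1.61. The subunits of replication protein A, which coats single-stranded DNA, were lower by less: RPA2 by -0.94, RPA1 by -0.74 and RPA3 by -0.34 ± 0.05 (limma adjusted p = 1.99e-05). RPA3 had 65.7, 77.9 and 98.5 TPM untreated and 53.6, 59.2 and 74.4 TPM with E, so its groups overlapped.

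Of the strand maturation genes, FEN1, the flap endonuclease, had 97.4, 120 and 123 TPM untreated and 15.8, 24.2 and 31.6 TPM with E, a log2 change of -2.24 ± 0.06 (limma adjusted p = 1.42e-12). LIG1, which seals the nicks, changed by -1.35, and RNASEH2A, a ribonuclease H2 subunit, by -0.89 ± 0.11, from 28.1, 38.9 and 46.8 TPM to 12.8, 20.9 and 24.4 TPM. Of the fork protection genes, CLSPN, the checkpoint adaptor, had 27.3, 30.5 and 36.5 TPM untreated and 2.65, 4.57 and 7.14 TPM with E, a change of -2.45 ± 0.09. Its partner TIPIN changed by -1.51. TIMELESS, which binds TIPIN, changed by -1.25 ± 0.05, from 35.8, 38.9 and 41.4 TPM to 11.2, 16.4 and 18.2 TPM.

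The 5 genes that copy chromatin with the DNA changed by a median of -1.67. CHAF1A, the large subunit of the histone chaperone CAF-1, had 29.1, 32.2 and 34.5 TPM untreated and 4.94, 7.62 and 11.1 TPM with E, a change of -1.91 ± 0.08. DNMT1, the maintenance DNA methyltransferase, changed by -0.97 ± 0.06, from 71.6, 80.4 and 89.0 TPM to 31.5, 41.8 and 46.2 TPM. UHRF1, which recruits DNMT1, was the member with the largest ratio of highest to lowest untreated level. It had 11.6 TPM in untreated Y698F and 41.5 TPM in untreated Y726F. With E it was at 13.0 TPM in Y698F, so that line was 0.14 higher on the log2 scale where the other 9 were lower, and the overall change was -1.68 ± 0.20 (limma adjusted p = 3.59e-06).

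In nucleotide supply the changes ran from -2.57 to -0.64. RRM2, the regulated subunit of ribonucleotide reductase, had 122, 150 and 202 TPM untreated and 12.2, 24.8 and 38.6 TPM with E, a log2 change of -2.57 ± 0.14 (limma adjusted p = 1.76e-09). TYMS, thymidylate synthase, had 166, 177 and 200 TPM untreated and 21.8, 30.9 and 44.4 TPM with E, a change of -2.52 ± 0.10 (limma adjusted p = 6.23e-11). RRM1, the large reductase subunit, changed by -1.71, and DCTPP1, a dCTP pyrophosphatase, and TK1, thymidine kinase, by -1.40 and -1.20. DUT, the dUTPase, changed by -0.84. GGH, a folate hydrolase, had 18.9, 28.2 and 31.7 TPM untreated and 12.9, 16.9 and 21.4 TPM with E, a change of -0.64 ± 0.05, and its groups overlapped. FAM111B, a trypsin-like protease, had 21.4, 23.7 and 25.8 TPM untreated and 2.97, 4.13 and 5.40 TPM with E, a change of -2.28 ± 0.07.

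**Figure D2:**
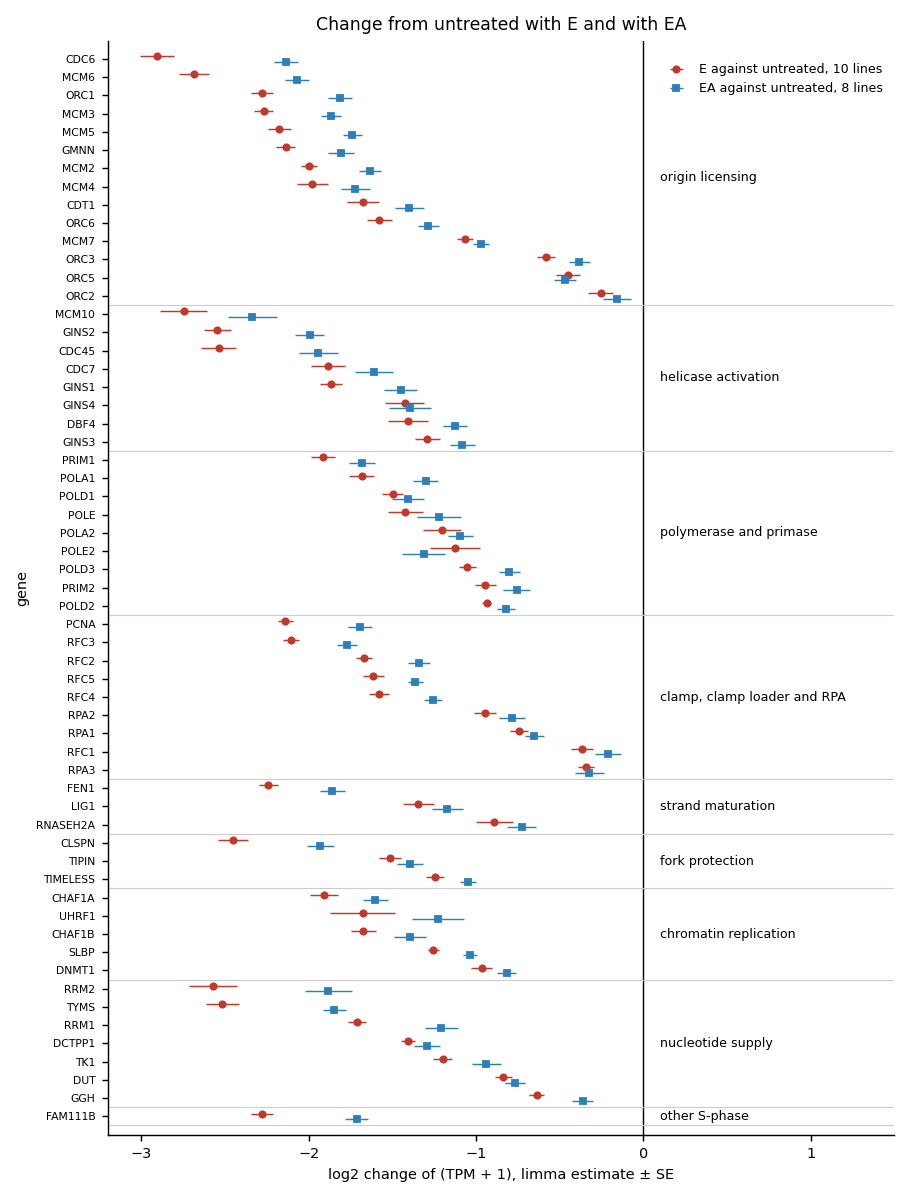
Log2 change of (TPM + 1) from untreated for each of the 59 genes, as the limma estimate with its SE, in red for E (10 lines) and in blue for EA (8 lines), by class. CDC6 stands farthest left at -2.90, ORC2 lies nearest 0 at -0.26, and the blue points lie to the right of the red ones for nearly all genes.

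For MCM7, POLE2, ORC6 and DUT the gene total summed transcripts with unlike changes. MCM7-201, a protein-coding transcript, fell from 98.7 ± 6.8 to 24.7 ± 3.8 TPM (SD, n = 10), a mean log2 change of -1.97, while MCM7-210, annotated as a retained intron, went from 47.0 to 25.4 TPM. The share of MCM7-201 in the MCM7 total went from 62.8% to 33.1%. POLE2-201, protein coding, went from 9.78 ± 2.23 to 1.26 ± 0.63 TPM, a change of -2.29, and its share from 35.2% to 9.59%, while POLE2-207, a processed transcript, was at 4.87 and 4.22 TPM. For ORC6 the protein-coding ORC6-201 changed by -1.91 and the retained intron ORC6-207 by -0.31. In DUT both transcripts are protein coding: DUT-202 and DUT-205 changed by -2.09 and -0.18. PCNA-201 made up 97.4% of PCNA over all libraries, and the most abundant transcript held more than 50% of the gene total for 40 of 59 genes. In RRM2 the 2 most abundant transcripts were both annotated as retained introns, and they changed by -2.58 and -2.73. The most abundant transcript was lower in all 10 lines for 55 of 59 genes, and this too was not counted over all genes. How reads were shared between transcripts of a gene was estimated by kallisto, and no transcript was tested alone.

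**Figure D3:**
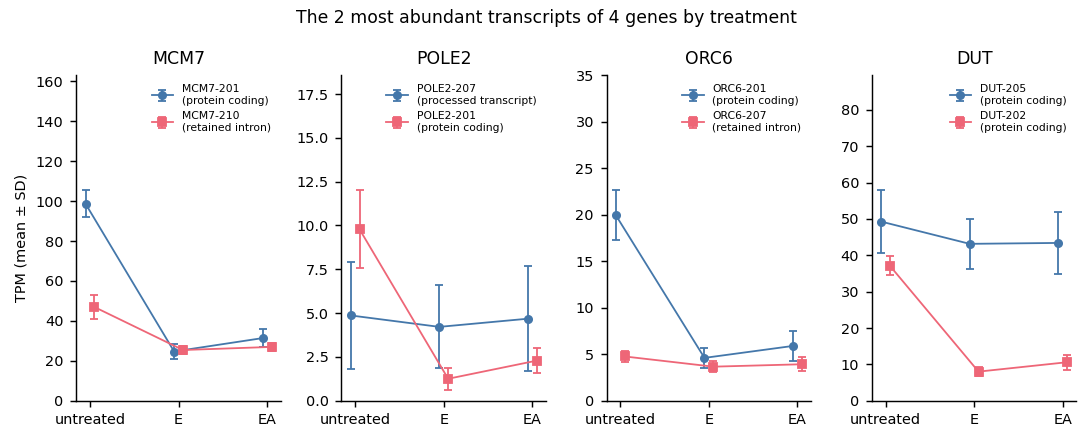
TPM of the 2 most abundant transcripts of MCM7, POLE2, ORC6 and DUT (mean ± SD over 10 untreated, 10 E and 8 EA libraries), with the annotated transcript type in each legend. MCM7-201, POLE2-201, ORC6-201 and DUT-202 drop steeply with E, while the other transcript of each gene drops less.

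AF154 on top of erlotinib gave a small rise that was spread over the list. The median log2 change of EA against E in 8 lines (all but KO and KD) was 0.24, against 0.01 over all genes, and 57 of 59 changes were above 0. Few passed the test: 4 of 59 were called higher by limma, against 0.411% of all genes, and these were CDC6, PCNA, TYMS and FAM111B. An unadjusted p under 0.05 was found for 39 of 59 genes and for 2382 of the 14111. The level was higher in all 8 lines for 22 of 59 genes, against 3.05% of all genes. It was higher in 7 or 8 lines for 35, a count that was not made over all genes.

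The count of 4 moved with the genes and lines that entered the fit, with the scaling and with the block for line. When only genes averaging 10 TPM or more entered, 18 of 57 were called higher (1.88% of all genes under that filter; the study's methods give a 10 TPM minimum without saying over which libraries), and with protein-coding transcripts only, 23 of 58 were (1.77%). With library medians centred it was 1 (27 of all 14111 genes), with no filter 0 (5 of 26628) and without the block for line 0 (3 of 14111). Leaving out any of the 6 mutant lines (Y634F, Y643F, Y698F, Y726F, Y750F or Y821F) left 0 called, leaving out PAR left 2 and leaving out WT left 4. Few genes of any kind were called in these fits. Of all 14111 genes it was 0 to 19 without a mutant line, 30 without PAR and 36 without WT. The median change was 0.20 to 0.28 over the 14 alternatives in which it was recomputed.

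FAM111B had the lowest adjusted p of the list. It was at 5.50, 6.47 and 8.09 TPM (lowest, median and highest) with EA in the 8 lines, all above the highest E library at 5.40 TPM, and its log2 change was 0.53 ± 0.08 (limma adjusted p = 0.0234, higher in 8 of 8 lines). CDC6 was at 9.03, 12.1 and 14.0 TPM with EA, a change of 0.67 ± 0.11 (limma adjusted p = 0.0409, 8 of 8 lines) that was the largest of the list. TYMS was at 33.1, 50.1 and 57.7 TPM, a change of 0.59 ± 0.11 (limma adjusted p = 0.0469, 8 of 8). PCNA was at 73.9, 103 and 118 TPM, a change of 0.42 ± 0.08 (limma adjusted p = 0.0486, 8 of 8). With EA these levels overlapped those with E for CDC6, TYMS and PCNA, and for all 4 they lay below every untreated library. In the KD pair, which was not in the test, TYMS changed by 0.36, CDC6 by 0.27, PCNA by -0.05 and FAM111B by -0.28.

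Several genes missed the threshold by little. Closest were GGH (limma adjusted p = 0.0571) and RFC4 (limma adjusted p = 0.058), and ORC1, POLD3 and RRM1 were at 0.063. RRM2 was at 28.7, 42.6 and 57.1 TPM with EA (log2 change 0.64 ± 0.14, limma adjusted p = 0.0731, higher in 7 of 8 lines) and MCM6 at 7.71, 10.9 and 12.0 TPM (0.56 ± 0.12, limma adjusted p = 0.0653, 8 of 8). MCM2 (0.34 ± 0.07), POLA1 (0.36 ± 0.07), CLSPN (0.48 ± 0.10) and RFC3 (0.33 ± 0.07) each had a limma adjusted p of 0.063 and were higher in 8 of 8 lines. Farther from the threshold, CDC45 was higher in 8 of 8 lines by 0.61 ± 0.17 (limma adjusted p = 0.123), with 4.12, 6.59 and 12.1 TPM. MCM10 was higher in 5 of 8 (0.40 ± 0.21, limma adjusted p = 0.358). Differences under 0.1 were found among genes with small and with large falls: RPA3 (0.0029 ± 0.06), GINS4 (0.07 ± 0.18), MCM7 (0.07 ± 0.04), POLD1 (0.08 ± 0.08) and DUT (0.09 ± 0.05) are examples. POLE2 was 0.31 ± 0.17 lower in the sum of all transcripts and 0.31 higher in the sum of its protein-coding ones, and neither difference passed the test.

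Lines differed in the size of the rise. In PAR 58 of 59 genes were higher with EA than with E and the median change was 0.56. The medians were 0.34 in Y698F, 0.26 in Y750F and Y634F, 0.20 in Y726F and Y643F, 0.14 in Y821F and 0.08 in WT. Genes above 0 numbered 55 in Y698F, 52 in Y634F, 50 in Y750F, 45 in Y726F and in Y643F, 42 in Y821F and 40 in WT. Over all tested genes 48.1% to 57.4% were higher with EA in these 8 lines. In KD, whose kinase is inactive, 30 of the 59 genes were higher and 29 lower, with a median of 0.00, and 51.1% of all tested genes were higher. KD was the lowest of the 9 lines for 22 of the 59 genes and below the median of the other 8 for 48. These ranks of KD were not counted over all genes. With 1 library per line and treatment, differences between lines have no replicate check.

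**Figure D4:**
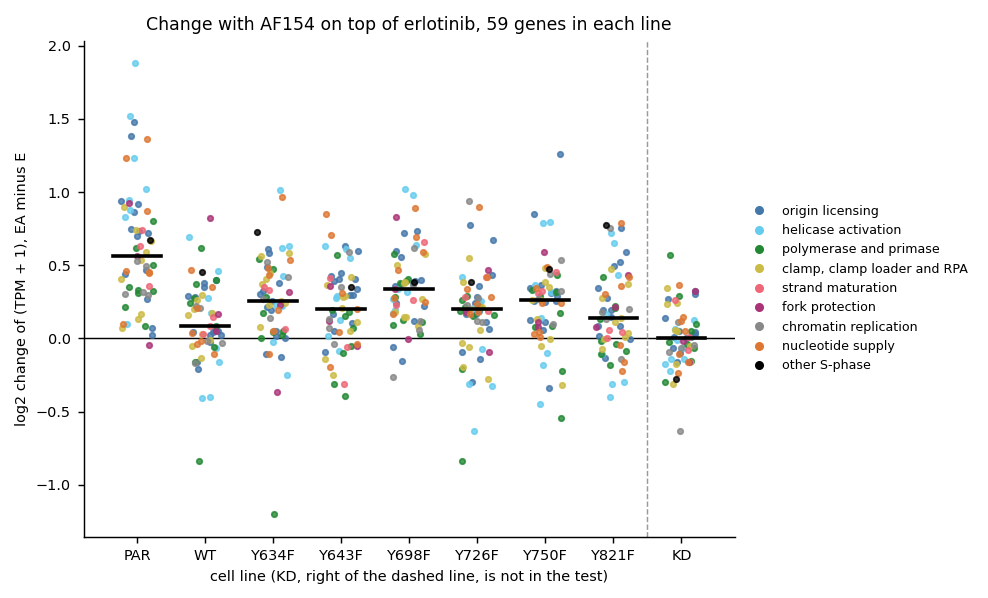
Log2 change of (TPM + 1) from E to EA for each of the 59 genes in each line (points, coloured by class) with the median as a black bar; KD stands apart at the right because it was not in the test. The PAR median is highest at 0.56, the medians of the 7 other tested lines run from 0.08 to 0.34, and that of KD is 0.00.

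PAR stood apart in its fall with E and in its rise from E to EA. Both differences use the 1 PAR library with E. With EA the mean log2(TPM + 1) of the 59 genes was 4.40 in PAR, against 4.22 to 4.55 in the 7 other tested lines. From untreated to EA their median change was -1.29 in PAR, against -1.50 to -1.15 in those lines. Of 59 genes, 36 had their largest fall with E in PAR and 35 their largest rise with EA there. Neither count was made over all genes. In PAR CDC6 was at 52.7, 3.79 and 12.4 TPM untreated, with E and with EA, and CDC45 was at 29.5, 2.56 and 12.1 TPM. The rise of CDC45 in PAR was 1.88 on the log2 scale. Of the 59 genes 8 rose there by over 1, while 3 rose by over 1 in at least 1 of the 7 other lines. Rises over 1 were not counted over all genes. The PAR library with E had 17.4% of TPM in mitochondrially encoded genes, against 12.3% to 14.2% in the other E libraries, and its median change over all genes from untreated was -0.16, against -0.03 to 0.07 in the other lines. The Y821F library with EA had the highest mitochondrial share of the 29, at 17.4%, against 12.9% in its E library, beside a median rise of 0.14. With mitochondrial genes left out, 11 of the 59 genes were called higher with EA than with E, as were 103 of all 14437 genes tested. The part of these shares in the PAR and Y821F values was not tested. Without PAR the median change of the 59 was -1.54 for E against untreated, with 59 called lower, and 0.20 for EA against E.

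**Figure D5:**
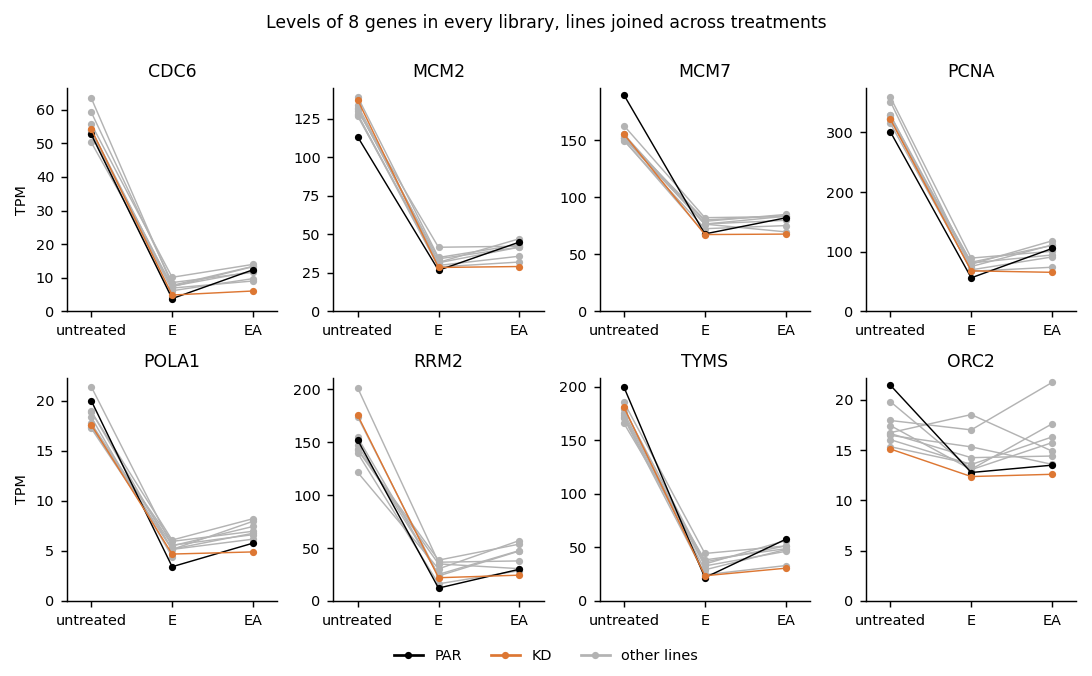
TPM of 8 genes in every library, with the treatments on the horizontal axis, each line's libraries joined, PAR in black, KD in orange and the other lines in grey; each vertical axis starts at 0. All genes but ORC2 drop steeply with E, and most lines climb slightly with EA, PAR more than most and KD hardly.

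Levels with EA stayed far below those of untreated cells. In the 8 lines 58 of 59 genes were called lower with EA than untreated by limma (31.6% of all genes were), at a median of -1.31, and for 50 of 59 every EA library lay below every untreated one (15.7% of all genes). The exception was ORC2 at -0.16 ± 0.09 (limma adjusted p = 0.131). RFC1 was the weakest call at -0.21 ± 0.08 (limma adjusted p = 0.0298) and was lost in 9 of the alternative fits. The whole list made up 0.133% to 0.188% of TPM with EA.

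The share of the erlotinib change that EA took back was 16.9% in the median of the 55 genes whose change with E was at least 0.5 on the log2 scale. By class the medians were 24.2% for nucleotide supply, 18.6% for clamp, clamp loader and RPA, 18.3% for origin licensing, 16.4% for chromatin replication, 16.3% for fork protection, 16.1% for strand maturation, 15.7% for helicase activation and 11.9% for polymerase and primase. GGH (44.1%) and ORC3 (35.9%) had the largest shares and small changes, RRM1, RRM2 and TYMS had 27.7%, 25.3% and 24.2%, and MCM7 had 6.70%. On the linear TPM scale the median share was 9.71% and the order of classes differed, with polymerase and primase at 9.41%, origin licensing at 9.36%, fork protection at 9.03%, strand maturation at 8.4% and helicase activation at 7.90%. Nucleotide supply (11.4%), clamp, clamp loader and RPA (10.5%) and chromatin replication (10.4%) stood above them. The same E libraries enter both differences of a share, so it is a description with no test.

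The replication genes left outside the list had a smaller median fall with E. Both sets of genes were drawn up with earlier results of these data known. A difference between them can thus come from the choice of genes, and it was not tested. Of 29 other replication genes 24 were called lower with E (36.3% of all genes were), 3 higher and 2 neither, with a median of -0.96. DSCC1, of the alternative clamp loader, and WDHD1, which ties polymerase alpha to the helicase, changed by -2.28 and -1.90. ORC4, the remaining origin recognition subunit examined, was at 52.3 TPM untreated and 50.5 TPM with E (-0.04, limma adjusted p = 0.542), and RNASEH2C was the other gene not called (-0.16, limma adjusted p = 0.111). The small polymerase delta subunit POLD4 was called higher with E, at 75.2 TPM untreated and 120.3 TPM with E (0.68). So were MCM9 (0.22) and CHTF8 (0.34). TOP2A, which untangles replicated DNA, was the 1 gene of these 29 called higher with EA than with E (0.37, limma adjusted p = 0.0111).

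Of 30 other nucleotide synthesis genes, 29 were called lower with E, at a median of -0.87. Purine synthesis (PAICS -1.81, PPAT -1.36), one-carbon supply (MTHFD2 -1.68) and pyrimidine synthesis (UMPS -1.08, CAD -0.81) were all among them. RRM2B, the reductase subunit that serves outside S phase, was at 9.49 TPM untreated and 11.2 TPM with E (0.24, limma adjusted p = 0.0874), where RRM2 fell. None of the 30 was called with EA against E, and 13 had an unadjusted p under 0.05.

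Regulators of S-phase entry fell with the list. All 11 tested were called lower with E, at a median of -1.95, among them the transcription factor E2F1 (35.4 to 5.12 TPM on average, -2.61), the phosphatase CDC25A (-2.61) and cyclin E1, CCNE1 (-1.95). E2F2 was under the level needed for a test. Cyclin A2, CCNA2, was the 1 of the 11 called higher with EA than with E (0.33, limma adjusted p = 0.0231), and E2F1 was 0.56 higher without passing (limma adjusted p = 0.0772).

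The 30 mitosis genes fell with E in all cases, at a median of -1.29, and 12 of 30 were called higher with EA, at a median of 0.28. NDC80, a kinetochore protein, rose by 0.41 (limma adjusted p = 0.0111), and CDK1, the mitotic kinase, by 0.38 (limma adjusted p = 0.0156). The 19 recombination and Fanconi genes all fell with E, at a median of -1.46, and 1, FANCI, was called higher with EA (0.29, limma adjusted p = 0.0451). Whether these lists differ from the 59 genes was not tested.

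Over the 29 libraries the 59 genes varied together. The Pearson correlation of log2(TPM + 1) of a gene with the mean of the other 58 had a median of 0.973 and was above 0.95 for 37 genes, highest for MCM3 (0.998) and lowest for ORC2 (0.567). All these correlations include the step from untreated to erlotinib, and none was computed within a treatment. Outside the list the genes closest to its mean were CDCA7 (0.996), FAM83D, CCNA2, BRI3BP and XRCC2 (each 0.99 or more). CDCA7 was at 48.4 TPM untreated and 3.66 TPM with E on average.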

How the data were processed

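RNA was extracted and sequenced per line and treatment. Per the labels and the study's methods the authors had reads aligned by Novogene, and the submitters' processing notes name kallisto and GRCh38, with versions not given in the sources used here. The deposited values are TPM per transcript, which keep no depth, so counting error is unknown. Of 188753 transcripts, 169797 matched GENCODE release 29 (97.0% to 97.4% of TPM per library) and were summed into 35579 genes. Python 3.11.15, pandas 2.3.3 and R 4.3.3 were used.

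The test covered genes averaging 1 TPM or more across all libraries, on log2(TPM + 1) with limma 3.58.1 (trend, cell line as a block), with Benjamini-Hochberg adjustment over 14111 genes and a threshold of 0.05. Fold changes on this scale understate those of low genes. E was compared with untreated in 10 lines, and EA with E and with untreated in 8, so comparisons with E share libraries. On simulated data for EA against E with 200 genes changed, 136 were recovered at a log2 change of 0.5 and 182 at 1. The noise was drawn independently for each gene. Smaller changes, such as the median of 0.24 of the 59 genes, were not simulated, so their recovery is not known.

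The 59 genes, their classes and the other lists were chosen with earlier results of these data known. Named in full were, per class, the genes with the largest and smallest change with E and the largest rise with EA, plus MCM2, PCNA, POLA1, RRM2 and TYMS. Genes and transcripts singled out beyond that rule, including UHRF1, POLE2, the MCM and RFC subunits and the transcript pairs, were chosen after their values were seen. Replicate pairing comes from the cell line, since each line gave 1 library per treatment. Sequences and gene starts are from RefSeq. Alternatives covered the pseudocount, scaling, filter, transcripts, weights, block and each line.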

Additional observations from a re-analysis of the deposited data

Results flagged for a closer look

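Values far from the others of their group by Dixon's test at 95% were found in 11 of 60 groups examined, where chance gives about 3. The groups overlap in genes and in libraries, so the flags are not separate results. Most were of PAR, and most of those use the 1 PAR library with E. The PAR median log2 change of the 59 genes with E was -2.01, against -1.71 to -1.43 in the other 9 lines. In PAR the polymerase and primase genes changed by -1.86 with E (others -1.44 to -1.03) from a mean untreated level of 5.52 on the log2(TPM + 1) scale (others 5.12 to 5.32). The strand maturation genes changed by -2.17 (others -1.47 to -0.93) to a mean level of 4.0 with E (others 4.42 to 4.77). The helicase activation genes had a mean level of 2.31 with E in PAR (others 2.75 to 3.19) and rose by 0.98 with EA against E (others 0.03 to 0.33).

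In WT the nucleotide supply genes changed by -1.09 with E, against -1.57 to -1.36 elsewhere. With EA the KD library was low for clamp, clamp loader and RPA genes, with a mean level of 4.74 (others 4.98 to 5.22), and for FAM111B, with 2.07 (others 2.70 to 3.18). FAM111B in Y634F changed by -1.4 from untreated with EA, against -1.84 to -1.64 in the other 7 lines.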

How the results depend on the processing

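Every member tested was called lower with E than untreated in every fit run (57 of 57 with the 10 TPM minimum, 58 of 58 with coding transcripts only and 59 of 59 otherwise), and the call count of EA against untreated was 56 to 59. The median change with E was -1.66 to -1.54 and with EA against E 0.20 to 0.28 over the alternatives, and the median share taken back was 9.71% to 18.9%. No gene named here reversed a called direction.

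The count of 4 genes called higher with EA against E moved. It was 23 with protein-coding transcripts only (218 of 12317 over all genes) and 18 at a mean of 10 TPM (171 of 9085). With mitochondrial genes left out it was 11 (103 of 14437), and with library medians centred 1 (27 of 14111). With the KD pair included it was 1 (24 of 14111), and with no filter 0 (5 of 26628). Without the replicate block for line it was 0 (3 of 14111 over all genes). There 30 of the members had an unadjusted p under 0.05, and with no filter 37 had one. The count ranged from 0 to 4 when single lines were dropped, where 35 to 40 members had an unadjusted p under 0.05. Over all 14111 genes 0 to 36 were called higher in those fits. The cause was not tested. RFC1 against untreated with EA had an adjusted p of 0.0538 to 0.0783 in the 9 limma fits where it was lost, and ORC2 passed with coding transcripts only (0.000396) and without Y643F (0.0381). Depth is not known from TPM, and 18 genes had a mean under 10 TPM with E, where 1 TPM of pseudocount shrinks a change most.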
